A study of Mus musculus with 16 samples.

Results

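The mitochondrial ribosomal protein genes are the nuclear genes named Mrpl or Mrps followed by a number, whose products are built into the large and the small subunit of the mitochondrial ribosome. They were taken from the array's probe table as every row with a single gene symbol of that form, and the brightest row, by its mean over the 16 arrays, stood for a gene with several rows. This gave 77 genes of 19938 genes tested. Of these, 50 encode proteins of the large subunit and 26 proteins of the small subunit. Mrps36 is in neither, since its product is known as a part of the 2-oxoglutarate dehydrogenase complex. By descent, 44 have a homologue in the bacterial ribosome, 29 are additions found in mitochondria, and 3 form the S18 family, a bacterial protein with 3 mammalian copies. All 77 lay above the limit below which a gene was treated as dim, the 33rd percentile of gene means.

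The mitochondrial ribosome translates the few messages of mitochondrial DNA, nearly all of which encode core subunits of the respiratory chain and of ATP synthase. Its ribosomal RNAs come from mitochondrial DNA, whereas its proteins are made in the cytosol from nuclear genes and imported, so assembly draws on both genomes. The renal tubule, above all the proximal tubule and the thick ascending limb, is rich in mitochondria and relies on respiration for transport.

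The series measured mouse kidney RNA on 16 single-colour arrays, 1 per biological replicate, and its title names HIF, metabolism and protection in acute kidney injury. All mice belonged to 1 transgenic line that deletes Vhl from renal tubule cells once doxycycline is given, with Pax8-rtTA as the driver per the cited reference. The product of Vhl, the von Hippel-Lindau protein, targets hypoxia-inducible factors for breakdown. Control mice (n = 3) were untreated and carry the genotype label wt. VHL-KO mice (n = 3) were given a subcutaneous dose of doxycycline (0.1 mg for each 10 g of weight), and kidneys were taken 4 days later. AKI mice (n = 5), also labelled wt, received 50% glycerol at 0.05 ml per 10 g into the muscle of the left hind limb, which causes muscle breakdown (rhabdomyolysis) and kidney injury, and they went without drinking water for the 20 h that preceded the injection and the 24 h that followed. VHL-KO/AKI mice (n = 5) received both. The mice were of both sexes and weighed 24 to 31 g, and neither age nor the sex of each animal is given. Doxycycline and the deletion went together in every mouse, as did glycerol and the withdrawal of water, so the members of each pair cannot be told apart. RNA came from transversely cut kidney, in which fewer cells of a type and less RNA per cell cannot be told apart.

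Vhl had log2 levels of 7.03, 7.05 and 7.10 in Control arrays and 6.70, 6.62 and 6.64 in VHL-KO arrays. It was at 7.16, 7.12, 7.17, 7.01 and 7.36 in AKI arrays and at 6.41, 6.35, 6.52, 6.66 and 6.54 in VHL-KO/AKI arrays. Each array labelled as a knockout lay below each array that was not, and whether the probes lie in the deleted part is not given in the sources used here. The RNA of other cell types moved with injury: 7 of 8 proximal tubule markers and 4 of 5 thick ascending limb markers fell in AKI against Control, and 5 of 5 neutrophil markers rose. Mean levels of the proximal tubule list were 12.11 to 12.20 in Control and 10.15 to 11.68 in AKI arrays. Neutrophil lists averaged 4.59 to 4.74 in Control and 5.43 to 6.52 in AKI arrays, with VHL-KO/AKI arrays between 4.76 and 5.68. All 10 injured arrays had low Xist (4.16 to 5.08) and a high mean of Y-linked genes (7.77 to 8.26), and 5 of the 6 uninjured arrays the reverse (Xist 11 to 11.47, Y-linked mean 4.81 to 5.01). Control replicate 3 carried both signals, at 10.23 and 7.43. Injury and sex-linked signal therefore cannot be told apart in the comparisons of injured with uninjured kidneys, and in those comparisons no member stayed called with a covariate for sex-linked signal. Nor was any of the 19938 genes called there with that covariate, so the loss of calls is not particular to the members. Within groups the sex-linked signal differed most in Control replicate 3, so all values given with the covariate rest largely on that array. Without the covariate, 28.1% of all genes were called in AKI against Control and 13.6% in VHL-KO/AKI against VHL-KO. AKI replicate 4 had the lowest array weight, 0.218 (limma's measure of how closely an array follows its group), and results are given below without it and without Control replicate 3 where that moved them. Relative to Control, its injured tubule markers had a median of 2.91, against 5.15 to 5.45 in the other AKI arrays. For thick ascending limb markers it was -0.28 against -2.43 to -1.79. For neutrophil markers it was the highest, 1.84 against 0.69 to 1.51.

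Promoter sequence was examined because the members share a function and many share features of their start sites. RefSeq windows from assembly GRCm38.p6, 250 bases before to 50 bases after the start, were matched for 68 of the 77 genes (74 windows). Motifs were searched on both strands. The core of nuclear respiratory factor 1 (NRF1, GCATGCGC) was in 10.8% of member windows and 3.52% of the windows of protein-coding genes. For the core of ETS factors such as GABP (CCGGAAG) these shares were 33.8% and 11.6%, and for that of YY1 (AAGATGGC) they were 16.2% and 3.05%. The HIF core ACGTG, which also lies inside the E-box CACGTG, was in 25.7% against 20.9%. Over all 32851 windows the shares were 2.71% for NRF1, 8.86% for ETS, 2.75% for YY1 and 19.6% for the HIF core. The matches describe the letters of these windows and show no binding.

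The 250 bases before the start are given for 3 members that rose after injury and for 2 that fell. They are examples and do not stand for the rest. Mrpl42, with the largest fall, and Mrpl49 and Mrps21 are not among them. Capitals mark the NRF1, ETS and YY1 cores on either strand, and each sequence runs 5′ to 3′ on the strand of its gene.
Mrps18b (chr17:35916441-35916690, minus strand): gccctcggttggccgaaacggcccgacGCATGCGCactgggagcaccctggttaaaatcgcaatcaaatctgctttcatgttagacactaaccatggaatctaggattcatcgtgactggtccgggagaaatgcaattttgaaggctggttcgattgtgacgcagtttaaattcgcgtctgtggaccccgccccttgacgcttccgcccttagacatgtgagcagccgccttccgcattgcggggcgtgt
Mrps22 (chr9:98601680-98601929, minus strand): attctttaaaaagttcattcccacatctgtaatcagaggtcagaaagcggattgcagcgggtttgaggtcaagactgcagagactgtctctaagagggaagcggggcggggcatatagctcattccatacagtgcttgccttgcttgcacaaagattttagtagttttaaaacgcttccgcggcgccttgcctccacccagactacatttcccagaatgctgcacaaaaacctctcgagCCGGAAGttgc
Mrpl33 (chr5:31613701-31613950, plus strand): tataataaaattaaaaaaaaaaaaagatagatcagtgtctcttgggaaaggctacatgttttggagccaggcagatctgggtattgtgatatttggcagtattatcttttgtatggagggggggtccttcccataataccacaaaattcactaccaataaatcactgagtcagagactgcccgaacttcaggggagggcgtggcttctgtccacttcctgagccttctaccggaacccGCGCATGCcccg
Mrpl34 (chr8:71464676-71464925, plus strand): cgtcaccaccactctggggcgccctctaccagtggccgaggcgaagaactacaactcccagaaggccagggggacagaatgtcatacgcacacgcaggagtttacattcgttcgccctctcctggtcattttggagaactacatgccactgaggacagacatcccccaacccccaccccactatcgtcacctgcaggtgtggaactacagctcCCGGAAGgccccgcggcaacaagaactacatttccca
Mrpl23 (chr7:142532782-142533031, plus strand): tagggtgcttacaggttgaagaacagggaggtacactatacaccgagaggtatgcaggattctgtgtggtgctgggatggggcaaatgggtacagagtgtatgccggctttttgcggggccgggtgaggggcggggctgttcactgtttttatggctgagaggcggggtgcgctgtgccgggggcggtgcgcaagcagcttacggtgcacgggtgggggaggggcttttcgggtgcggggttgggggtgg
The capitals mark an NRF1 core in Mrps18b and Mrpl33 and an ETS core in Mrps22 and Mrpl34, and Mrpl23 has none of the 3. Unmarked are cores that reach past the start. Mrpl33 has an ETS core that begins at base -3, and Mrps18b has an NRF1 core at base 29 and an ETS core at base 44. Both genes thus hold an NRF1 and an ETS core in the full window. Of 6 members that rose in AKI against Control and have a window, 2 held the NRF1 core and 4 the ETS core within 300 bases. Of the 17 that fell and have a window, none held the NRF1 core, 4 held the ETS core and 5 the YY1 core. The members higher after injury numbered too few for these shares to be compared. Start sites of 24 of the 68 genes (35.3%) lay within 1000 bases of a gene on the opposite strand that is read the other way, against 8.48% of protein-coding genes. Such head-to-head neighbours did not always share a direction: Mrpl47 differed by 0.80 in AKI against Control and its neighbour Ndufb5, a complex I subunit, by -0.60. Mrpl37 and its neighbour Cyb5rl both fell, by 0.46 and 0.49 on the log2 scale.

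Injury without Vhl deletion was examined first. In AKI against Control the genes of the mitochondrial ribosome did not move as a block: 18 of the 77 fell, 7 rose and 52 passed no test (limma, Benjamini-Hochberg adjusted p under 0.05 over all genes). Those that fell were 23.4% of the members, against 14.9% of all genes tested, and those that rose were 9.09% against 13.2%. In either direction 28.1% of all genes were called. The median difference over the members was -0.09 on the log2 scale, against 0.02 over all genes. Single members ranged from -0.86 (Mrpl42) to 1.12 (Mrps18b). In the large subunit 13 of 50 fell and 3 rose, and in the small subunit 5 of 26 fell and 4 rose. Among proteins with a bacterial homologue 13 of 44 fell and 3 rose, and among the mitochondrial additions 5 of 29 fell and 2 rose. AKI arrays lay wholly below Control arrays for 18 members (background 13.8% of all genes) and wholly above for 6 (13.5%).

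**Figure D1:**
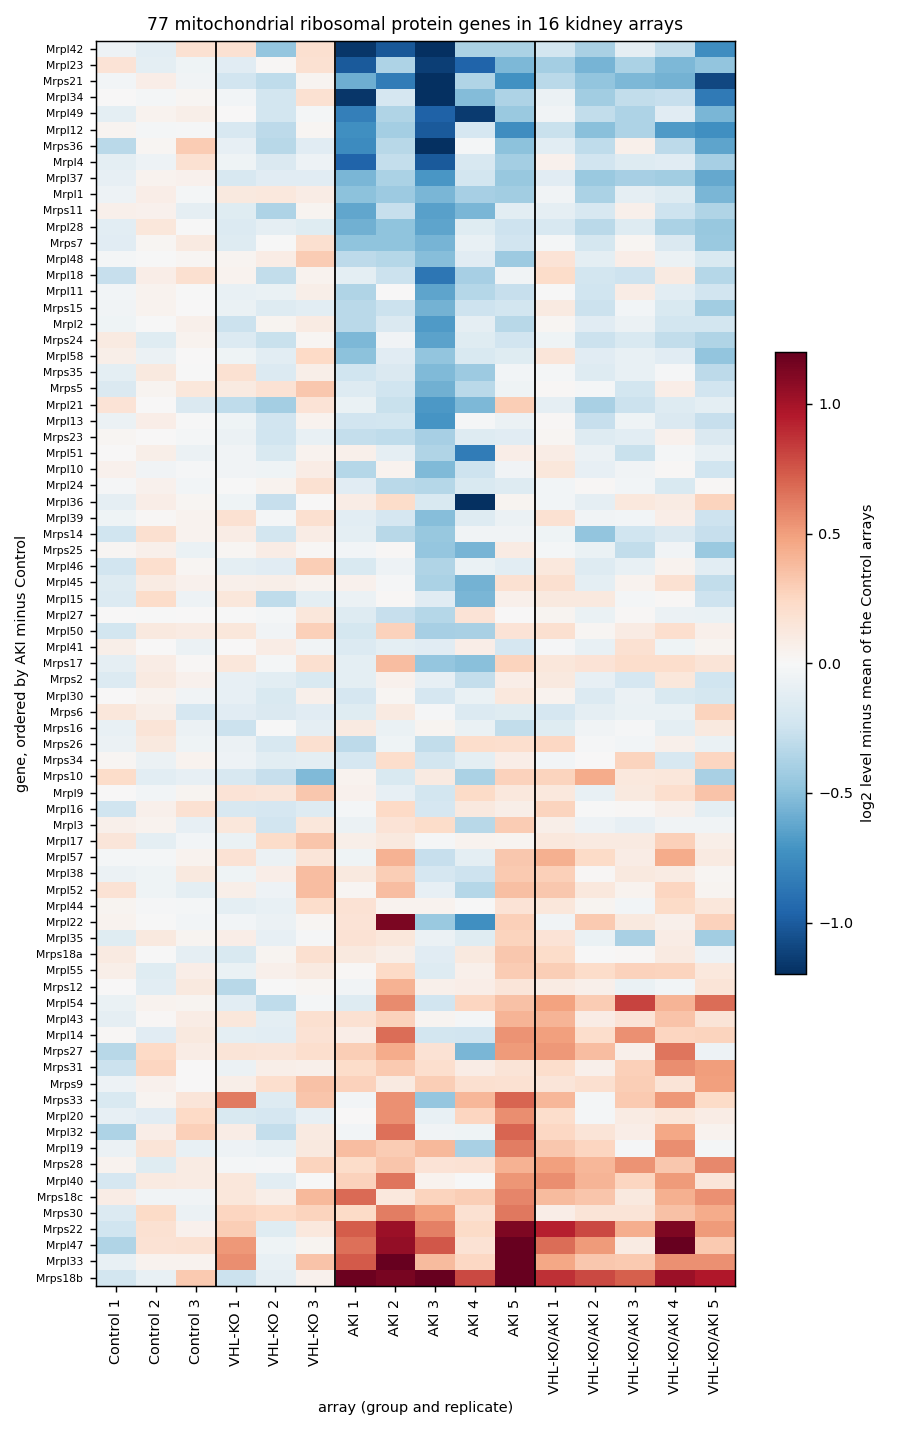
Heat map of the log2 level of 77 mitochondrial ribosomal protein genes (lines, ordered by AKI minus Control) in 16 arrays (columns, by group and replicate), each minus the mean of the Control arrays and with the colour scale ending at 1.2 either way. Genes at the top are lower and genes at the bottom higher in AKI arrays, most of the middle differs little, and VHL-KO/AKI arrays are paler than AKI arrays among the genes that fell.

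Mrps18b, a small-subunit member of the S18 family, had the largest rise and the smallest adjusted p of the members. Its log2 levels were 8.98, 9.11 and 9.51 in Control arrays and 10.38, 10.34, 10.40, 9.99 and 10.50 in AKI arrays. The groups did not overlap, with Control replicate 3 the highest of the uninjured arrays and AKI replicate 4 the lowest of the AKI arrays. The difference was 1.12 (SE 0.128, adjusted p 3.33e-05, limma), a 2.18-fold rise, and 1.36 without both of these arrays. With a covariate for sex-linked signal it was -0.14 with an SE of 0.448.

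Mrps22, a mitochondrial addition of the small subunit, was at 8.08, 8.50 and 8.37 in Control arrays and at 9.04, 9.34, 8.92, 8.55 and 9.44 in AKI arrays. Every AKI array was above every Control array, AKI replicate 4 by little, and the difference was 0.74 (SE 0.196, adjusted p 0.0103). The call was lost without Control replicate 1. Mrpl33, a small protein of the large subunit with a bacterial homologue, was at 7.02, 7.16 and 7.16 in Control arrays. In AKI arrays it was at 7.85, 8.31, 7.49, 7.36 and 8.67. The groups did not overlap, but the AKI arrays were spread over more than the whole difference of 0.82 (SE 0.236, adjusted p 0.0169).

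Mrpl47, which sits near the exit of the peptide tunnel, was at 6.94, 7.48 and 7.49 in Control arrays and at 7.96, 8.36, 8.05, 7.48 and 8.65 in AKI arrays. AKI replicate 4 fell within the Control range, and the difference was 0.80 (SE 0.263, adjusted p 0.0339). A dimmer row for Mrpl47, with a mean of 5.12, differed by 0.04, and the mean of both rows was not called. The other members that rose were Mrps30 (0.43), a protein of the large subunit in spite of its name, Mrps18c (0.39) and Mrps28 (0.26). Mrps30 rose although AKI replicate 4 (7.86) lay within the Control range of 7.51 to 7.91, and Control replicate 2 and AKI replicate 1 both read 7.91. Without Control replicate 1, or without Control replicate 3, neither Mrpl47 nor Mrps30 was called.

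Among the members that fell, Mrpl42, a mitochondrial addition of the large subunit, had the largest difference. Its levels were 8.26, 8.20 and 8.51 in Control arrays and 7.16, 7.31, 7.0, 7.94 and 7.94 in AKI arrays. The groups did not overlap, and the AKI arrays split between a lower set of 3 and replicates 4 and 5, with a difference of -0.86 (SE 0.225, adjusted p 0.00995), a 1.81-fold fall. The call was lost without Control replicate 3 (largest adjusted p 0.051 over the left-out arrays).

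Mrpl23 lies at the exit of the peptide tunnel and has a bacterial homologue. It was at 10.74, 10.46 and 10.52 in Control arrays and at 9.57, 10.20, 9.44, 9.61 and 10.03 in AKI arrays. Every AKI array was lower, and the difference of -0.80 (SE 0.146, adjusted p 0.000937) had the smallest adjusted p of the members that fell. A separate row for Mrpl23 gave -0.79. Mrps21, a small-subunit protein with a bacterial homologue, was at 10.50, 10.62 and 10.49 in Control arrays and at 9.95, 9.70, 9.25, 10.18 and 9.81 in AKI arrays. Again no AKI array reached the Control range, and the difference was -0.76 (SE 0.184, adjusted p 0.00615).

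Mrpl49, a mitochondrial addition, was at 9.20, 9.36 and 9.39 in Control arrays and at 8.50, 8.96, 8.35, 8.17 and 8.87 in AKI arrays, a difference of -0.74 (SE 0.159, adjusted p 0.00278). The groups did not overlap and AKI replicate 4 was the lowest AKI array, in contrast to its place in Mrpl42 and Mrps21. Mrpl34 was at 9.46, 9.44 and 9.48 in Control arrays and at 8.29, 9.26, 7.95, 8.94 and 9.09 in AKI arrays. Its difference of -0.75 (SE 0.248, adjusted p 0.0333) was led by AKI replicates 1 and 3, and the call was lost without either of them or without any 1 Control array.

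Mrpl1, the protein of the mobile L1 stalk from which spent tRNA leaves, had tight groups. It was at 9.07, 9.21 and 9.10 in Control arrays and at 8.63, 8.69, 8.58, 8.73 and 8.71 in AKI arrays. All AKI arrays were lower, and the difference was -0.46 (SE 0.0936, adjusted p 0.00198).

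The stalk that recruits translation factors is built of Mrpl12 on Mrpl10, next to Mrpl11. Mrpl12, which is also known to bind the mitochondrial RNA polymerase, was at 8.76, 8.71 and 8.72 in Control arrays and at 7.99, 8.32, 7.72, 8.53 and 7.98 in AKI arrays. The groups did not overlap, AKI replicate 4 being nearest to Control, and the difference was -0.62 (SE 0.155, adjusted p 0.00729). Mrpl11 fell by 0.32 on the log2 scale (adjusted p 0.0435), with AKI replicate 2 (8.04) inside the Control range of 8.0 to 8.08. Mrpl10 differed by -0.23 and was not called (adjusted p 0.151).

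The rest of the 18 that fell lay between -0.57 (Mrpl4) and -0.23 (Mrpl24). They were Mrpl4, Mrpl37, Mrps11, Mrpl28, Mrps7, Mrpl48, Mrps15, Mrpl2, Mrps23 and Mrpl24. Of these, Mrpl4, Mrps7, Mrps15 and Mrpl2 were not called without Control replicate 3, and neither were Mrpl11 and Mrpl34. Members with further named roles passed no test. Mrps12, at the decoding centre, differed by 0.13, and Mrps5, at the entry of the message, by -0.27. Mrpl44 and Mrpl45 differed by 0.08 and -0.14; the latter anchors the ribosome to the inner membrane. Mrpl58, a peptidyl-tRNA hydrolase built into the large subunit, differed by -0.29 (adjusted p 0.108), although each AKI array (9.11 to 9.47) was below each Control array (9.53 to 9.67). Mrps27 differed by 0.18, and Mrps36, the dehydrogenase protein, by -0.58 (adjusted p 0.0721).

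**Figure D2:**
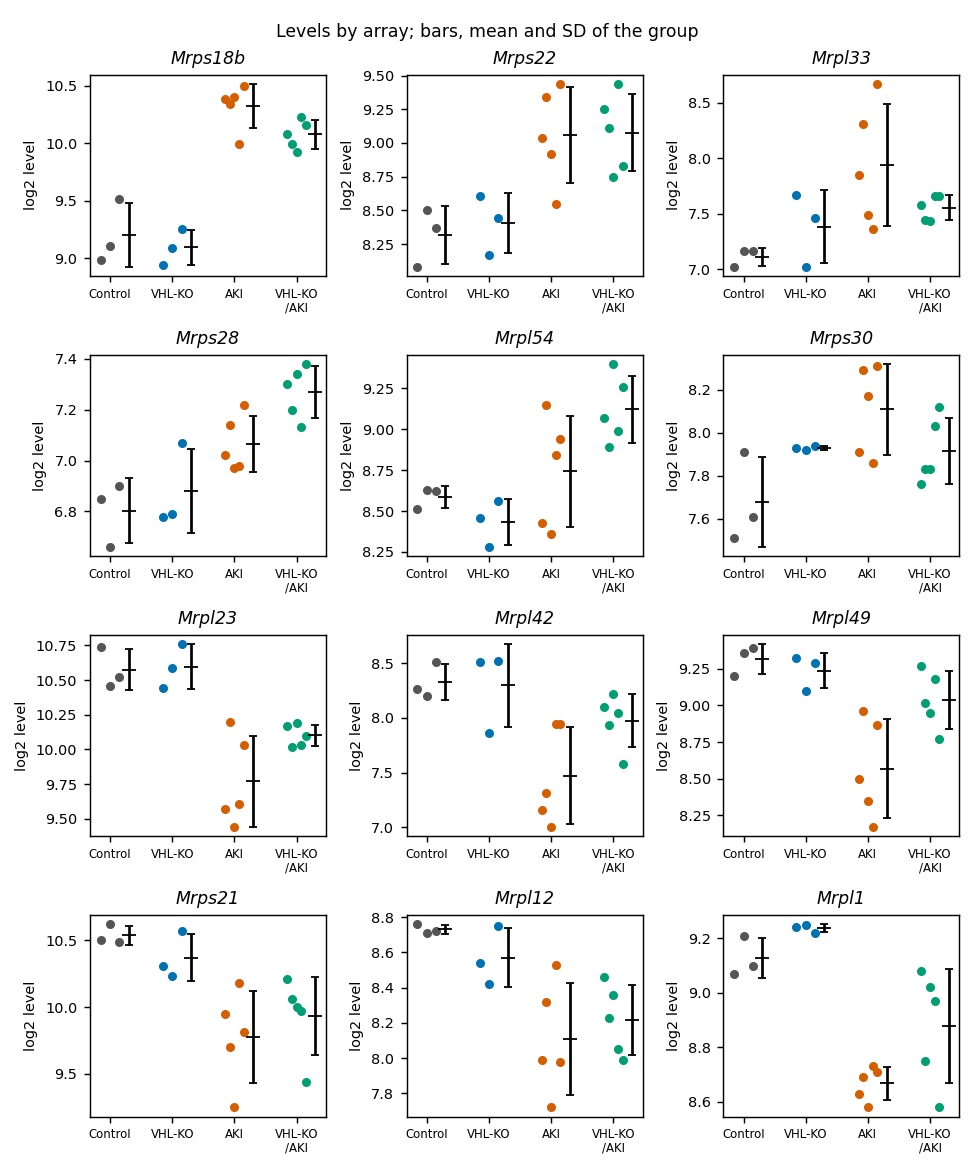
Log2 levels of 12 members in each array (points, coloured by group), with the mean and SD of each group beside them; the vertical scale differs between panels. Mrps18b lies above 9.9 in all 10 injured arrays and below 9.6 in all 6 uninjured arrays, whereas Mrpl23, Mrpl42, Mrpl49, Mrps21, Mrpl12 and Mrpl1 are lower in AKI than in Control arrays.

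Calls for injury leaned on single arrays, among the members and over all genes. Mrps18b, Mrpl1, Mrpl12, Mrpl23, Mrpl37, Mrpl48, Mrpl49 and Mrps21 stayed called whichever array was left out. Without Control replicate 1, 2 or 3 the members called were 2 higher and 11 lower, 4 higher and 9 lower, or 4 higher and 11 lower, and without AKI replicate 5 the number higher was 4. Over all genes, 2632 were higher and 2968 lower with every array. Without Control replicate 1, 2 or 3 these became 1745 and 2503, 2113 and 2304, or 2110 and 2416. Without both Control replicate 3 and AKI replicate 4, 6 members were higher and 14 lower, and of all genes 2982 and 3015.

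The 3 copies of the S18 family stand in different places of the ribosome, Mrps18a in the large subunit and the others in the small. Mrps18a was at 9.34, 9.23 and 9.13 in Control arrays and at 9.35, 9.30, 9.10, 9.35 and 9.56 in AKI arrays. The groups overlapped, and the difference was 0.10 (SE 0.104, adjusted p 0.544). Mrps18c was at 8.44, 8.31 and 8.31 in Control arrays and at 9.03, 8.48, 8.62, 8.65 and 8.94 in AKI arrays. The AKI arrays were all higher, by 0.39 (SE 0.124, adjusted p 0.0269), and the call was lost without any 1 of 4 arrays, Control replicate 3 among them. In VHL-KO/AKI against VHL-KO, Mrps18a differed by 0.04 and Mrps18c by 0.16, and neither was called.

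**Figure D3:**
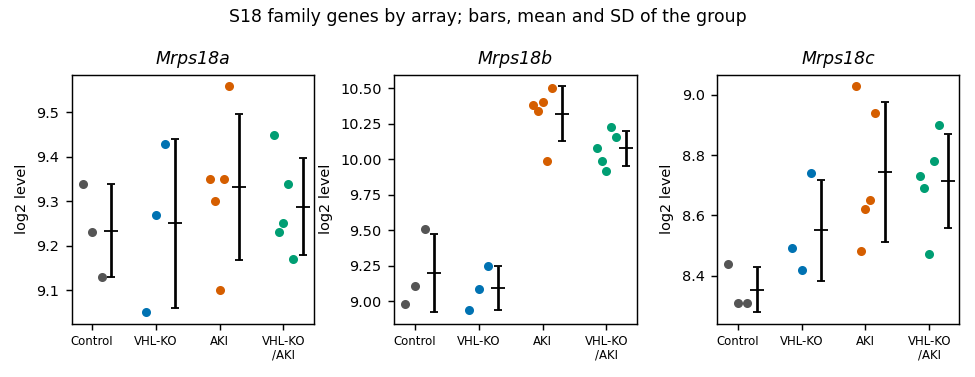
Log2 levels of Mrps18a, Mrps18b and Mrps18c in each array (points, by group), with the mean and SD of each group; the vertical scale differs between panels. Injured and uninjured arrays are apart for Mrps18b, where AKI differed from Control by 1.12, and overlap for Mrps18a, where it differed by 0.10.

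The nuclear genes for other parts of mitochondrial gene expression and respiration were set beside the members. Among subunits of oxidative phosphorylation 53 of 72 fell in AKI against Control, none rose, and the median was -0.49; whether this differs from the members was not tested. Ndufa2 (-0.96) and Atp5e (-0.95), subunits of complex I and ATP synthase, were among the largest. Of 15 mitochondrial translation factors 6 fell and none rose, with the ribosome recycling factor Gfm2 (-0.56), the elongation factor Tufm (-0.53), the initiation factor Mtif3 (-0.54) and the membrane insertase Oxa1l (-0.42) among them. Of 26 genes for ribosome assembly and ribosomal RNA 7 fell and none rose, led by the rRNA methyltransferase Tfb1m (-0.79) and including the maturation factor Rbfa (-0.45). Of 19 genes for charging mitochondrial tRNA 5 fell, Nars2 by 0.70 and Cars2 by 0.47 on the log2 scale, and none rose. Among 11 genes of mitochondrial DNA and transcription 1 fell, the thymidine kinase Tk2 (-0.44).

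Mitochondrial ribosomal proteins under other names went both ways, as the members did. Dap3, a GTP-binding protein of the small subunit, fell by 0.57 on the log2 scale (adjusted p 0.00622), and Chchd1 rose by 0.54 (adjusted p 0.0159). Only 2 of 13 mitochondrial messages had a row of their own: COX2 differed by 0.00 and ND3 by -0.03, and neither was called. Of 53 cytosolic ribosomal protein genes 8 rose and none fell, with Rpl12 (0.90) and Rps15a (0.77) among the largest. Of 11 regulators, the coactivator Ppargc1a fell by 1.33 and the receptor Esrrg by 1.22 on the log2 scale, whereas Myc rose by 3.19 and the coactivator Pprc1 by 1.13. Whether any of these, or the loss of tubule RNA, had a part in the members' changes was not tested.

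**Figure D4:**
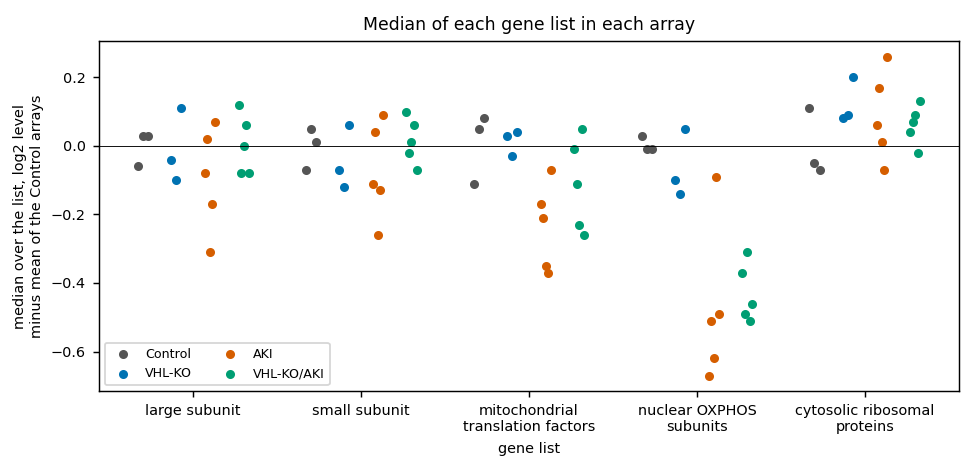
Median over each of 5 gene lists in every array (points, coloured by group), as the log2 level minus the mean of the Control arrays. Nuclear oxidative phosphorylation subunits lie between -0.67 and -0.09 in AKI and between -0.51 and -0.31 in VHL-KO/AKI arrays, while the medians of both ribosomal subunits spread to either side of 0 in each group.

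Per array, the median over the 77 members, relative to Control, was -0.11, 0.02, -0.30, -0.15 and 0.08 in AKI arrays and -0.06, 0.04 and 0.02 in Control arrays. AKI replicate 2 lay within the range of the Control arrays, replicate 5 above it and the other 3 below it, replicate 3 lowest. After removal of group means, pairs of members had a median correlation of 0.34 over the 16 arrays (2926 pairs, 79% above 0). The median was 0.42 within the large subunit, 0.17 within the small subunit and 0.58 among oxidative phosphorylation subunits. These correlations share arrays, tissue make-up and scaling, and they are given as a description.

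The Vhl deletion alone was examined next, in VHL-KO against Control. No member was called in either direction (limma), against 0.476% of all genes called higher and 0.0502% called lower (0.527% in all), and 1 had an unadjusted p under 0.05 (1.3%, against 8.35% of all genes). The median difference was -0.01, and 37 of 77 members were above 0; after other scalings of the arrays, 17 or 18 were above 0 and the median was -0.09. The values ran from -0.33 (Mrps10) to 0.27. VHL-KO arrays lay wholly above Control for 5 members (background 11.8%) and wholly below for 4 (5.33%).

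The smallest adjusted p was that of Mrps9, a small-subunit protein with a bacterial homologue. It was at 7.02, 7.13 and 7.08 in Control and at 7.15, 7.28 and 7.43 in VHL-KO arrays, higher in each of 3, and the difference of 0.21 (SE 0.095) did not pass the test (adjusted p 0.58). Mrps30 was at 7.51, 7.91 and 7.61 in Control and at 7.93, 7.92 and 7.94 in VHL-KO arrays, 0.25 higher (adjusted p 0.674). Mrpl9 was 0.21 higher and Mrps10 differed by -0.33, both with groups that did not overlap and neither called. The stalk proteins Mrpl12, Mrpl11 and Mrpl10 differed by -0.16, -0.03 and 0.00. Of the other lists for mitochondrial gene expression, only the regulators held a call, Myc, which was 1.58 higher (adjusted p 0.00467).

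Deletion in injured kidneys was addressed by VHL-KO/AKI against AKI. Here 1 member rose and none fell, or 1.3% of the members, against 2.48% of all genes that rose and 1.4% that fell (3.88% in all). However, 63 of the 77 (81.8%) were above 0, against 45.6% of all genes, with a median difference of 0.12. Over other scalings 55 to 60 members were above 0. With array weights it was 54. Leaving out 1 array gave from 53 (without AKI replicate 4) to 66 (without AKI replicate 5), with 54 without AKI replicate 3. The share was 80% in the large subunit (40 of 50) and 84.6% in the small (22 of 26), and among mitochondrial additions 28 of 29 were above 0. Members vary together across arrays, so these counts are no test.

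The medians per array overlapped between the groups: -0.11, 0.02, -0.30, -0.15 and 0.08 in AKI and 0.12, -0.06, 0.01, 0.06 and -0.08 in VHL-KO/AKI arrays. Without AKI replicate 3, the lowest of them, the median difference was 0.07. No member had groups wholly apart, against 2.19% of all genes above and 1.58% below.

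Mrpl48, a mitochondrial addition of the large subunit, was the member that rose. It was at 9.25, 9.22, 9.05, 9.43 and 9.13 in AKI arrays and at 9.73, 9.45, 9.64, 9.49 and 9.38 in VHL-KO/AKI arrays. AKI replicate 4 overlapped the lowest VHL-KO/AKI array, and the difference was 0.32 (SE 0.0825, adjusted p 0.0457). This call held in 3 of 16 fits that left out 1 array, and 0 members rose without Control replicate 3 and 2 without both it and AKI replicate 4. Without AKI replicate 4 alone 3 members rose and 1 fell. Over all 19938 genes 1442 then rose and 942 fell, against 495 and 279 with all arrays.

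Next in order of p came Mrpl49, at 9.27, 9.02, 8.95, 9.18 and 8.77 in VHL-KO/AKI arrays, 0.47 above AKI (SE 0.138, adjusted p 0.0741). The VHL-KO/AKI arrays overlapped AKI replicates 2 and 5 only. Mrpl24 and Mrps23 were each 0.18 higher (adjusted p 0.11 and 0.145), and Mrpl42 was 0.50 higher (adjusted p 0.174). Of the stalk proteins, Mrpl12 differed by 0.11, Mrpl11 by 0.22 and Mrpl10 by 0.18. Mrps18b differed by -0.24 (adjusted p 0.252), and Mrpl33 by -0.38, the lowest value of a member.

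Other genes of mitochondrial translation that rose here were Dap3 (0.46, adjusted p 0.0472), the mRNA-binding protein Lrpprc (0.36, adjusted p 0.0485), the release factor Mtrf1 (0.21, adjusted p 0.0427) and Nars2 (0.49, adjusted p 0.0294). Dap3 was at 8.65, 8.83, 8.59, 9.33 and 8.85 in AKI arrays and at 9.52, 9.24, 9.49, 9.24 and 9.06 in VHL-KO/AKI arrays. AKI replicate 4 alone overlapped them. Of 72 oxidative phosphorylation subunits none was called, with 46 above 0 and a median of 0.04. Tubule and neutrophil lists also moved: the thick ascending limb list had a median of 1.15 with 1 of 5 called higher, and 2 of 5 neutrophil markers fell, with a list median of -0.85. Their part in the members' differences was not tested.

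Injury on the background of the deletion was measured by VHL-KO/AKI against VHL-KO, which shares no array with AKI against Control. Here 4 members rose and 2 fell, or 5.19% and 2.60% of the members, against 4.66% and 8.91% of all genes (13.6% in all). The split was 6 and 0 with arrays centred on their medians, 5 and 1 after quantile scaling and 5 and 2 after cyclic loess. The median was -0.02 and 35 members were above 0, numbers that became 0.05 to 0.06 and 47 to 55 under these scalings. VHL-KO/AKI arrays lay wholly above VHL-KO arrays for 9 members (background 9.42%) and wholly below for 5 (14.9%).

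Mrps18b again led the members that rose. It was at 8.94, 9.09 and 9.25 in VHL-KO arrays and at 10.08, 9.99, 9.92, 10.23 and 10.16 in VHL-KO/AKI arrays. The groups were apart by more than the spread within either, and the difference of 0.99 (SE 0.128, adjusted p 0.000227) stayed called whichever array was left out. With a covariate for sex-linked signal it was -0.50 with an SE of 0.526.

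Mrpl54, a mitochondrial addition of the large subunit, was at 8.46, 8.28 and 8.56 in VHL-KO and at 9.07, 8.89, 9.40, 8.99 and 9.26 in VHL-KO/AKI arrays. The groups did not overlap, and the difference was 0.69 (SE 0.161, adjusted p 0.0105). In AKI against Control it differed by 0.16 (adjusted p 0.514), where AKI arrays ran from 8.36 to 9.15.

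Mrps22 was at 8.61, 8.17 and 8.44 in VHL-KO and at 9.25, 9.11, 8.75, 9.44 and 8.83 in VHL-KO/AKI arrays, all of them higher, with a difference of 0.67 (SE 0.196, adjusted p 0.0348). That call was lost without VHL-KO replicate 2 or 3, or without VHL-KO/AKI replicate 1, 2 or 4. Mrps28, a small-subunit protein with a bacterial homologue, was at 6.78, 6.79 and 7.07 in VHL-KO and at 7.30, 7.20, 7.34, 7.13 and 7.38 in VHL-KO/AKI arrays. It too did not overlap, and it rose by 0.39 (SE 0.0884, adjusted p 0.00867).

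Both members that fell belong to the large subunit. Mrpl23 was at 10.44, 10.59 and 10.76 in VHL-KO and at 10.17, 10.02, 10.19, 10.03 and 10.10 in VHL-KO/AKI arrays, lower in all 5, and fell by 0.49 on the log2 scale (SE 0.146, adjusted p 0.0364). Mrpl1 was at 9.24, 9.25 and 9.22 in VHL-KO and at 9.08, 8.75, 9.02, 8.97 and 8.58 in VHL-KO/AKI arrays, and fell by 0.36 (SE 0.0936, adjusted p 0.02). Its VHL-KO/AKI arrays were all lower but spread far more than its AKI arrays. Without any 1 of the VHL-KO arrays, or with arrays centred on their medians, 0 members fell, and without VHL-KO/AKI replicate 2, 4 or 5 it was 1, Mrpl1. Without VHL-KO replicate 2 the members that rose were 2. Mrps21 was lower in every VHL-KO/AKI array than in every VHL-KO array, with a difference of -0.43 that was not called (adjusted p 0.141).

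In the same comparison 26 of 72 oxidative phosphorylation subunits fell and none rose, with a median of -0.36. Of 53 cytosolic ribosomal protein genes none rose and 2 fell, Rps19 by 0.73 and Rpl37a by 0.46 on the log2 scale. Of the translation factors Gfm2 fell by 0.57 on the log2 scale, and of the tRNA-charging genes Cars2 fell by 0.41 and Gatb by 0.66. Of the regulators, Ppargc1a fell by 0.98 and Esrrg by 0.89 on the log2 scale, and Myc rose by 1.17. Of 8 proximal tubule markers 4 fell, with a list median of -0.92, and of 5 neutrophil markers 0 were called, with a list median of 0.34.

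The differences of the pair of injury comparisons come from separate arrays, although their calls share 1 estimate of the spread over all 16 arrays. Mrps18b, Mrps22 and Mrps28 rose in both, which is 3 of the 7 that rose without the deletion and 3 of the 4 that rose with it. Mrpl23 and Mrpl1 fell in both, 2 of 18 and 2 of 2. Of the 18 that fell in AKI against Control, 17 were below 0 with the deletion and 18 were smaller in size there, with medians of -0.45 and -0.17. Of the 7 that rose, 6 were above 0 and 6 were smaller, with medians of 0.74 and 0.39. Genes chosen for a call in 1 comparison tend to be smaller in the other, so these sizes are a description. In all, 51 members were called in no comparison. The matching overlaps and signs over all genes were not counted, so these counts are not shown to be particular to the members.

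**Figure D5:**
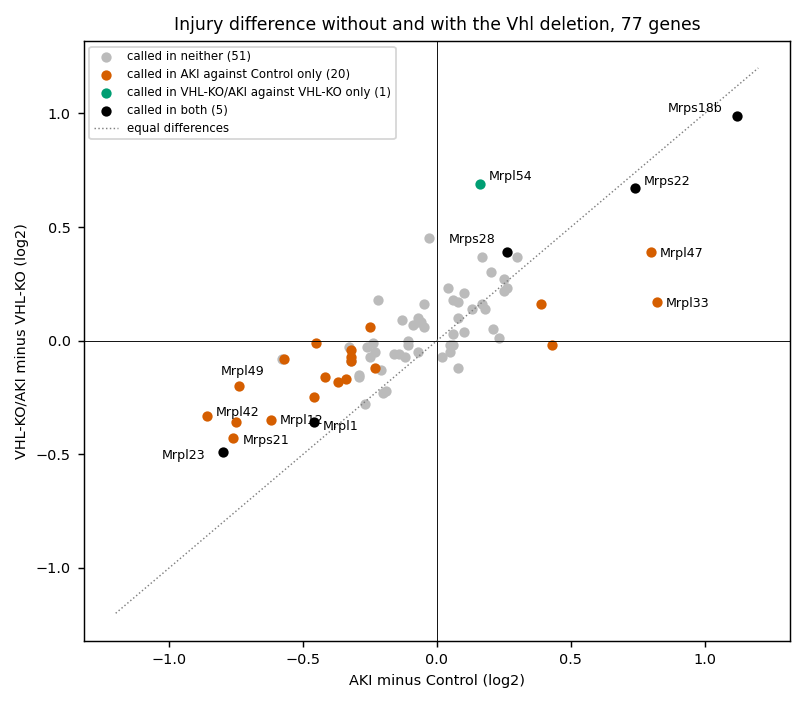
AKI minus Control (horizontal) against VHL-KO/AKI minus VHL-KO (vertical), both as log2 differences, for 77 members coloured by where they were called; the dotted line marks equal differences. All 18 members that fell without the deletion lie above the line, Mrps18b and Mrps22 lie close to it, and Mrpl54 stands apart at 0.16 and 0.69.

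Whether the deletion changed the response to injury was tested by the interaction, that is, VHL-KO/AKI minus AKI less the difference of VHL-KO from Control. No member was called in either direction (limma), against 0.01% of all genes, and 5 (6.49%) had an unadjusted p under 0.05, against 12% of all genes. The median was 0.11, and 55 of 77 (71.4%) were above 0, against 44% of all genes. The smallest adjusted p was 0.263, for Mrps23 (0.31, SE 0.107). The next were Mrps30 (-0.44, adjusted p 0.323), Mrps11 (0.44, adjusted p 0.359) and Mrpl49 (0.54, adjusted p 0.361). The smaller injury differences in kidneys with the deletion were thus not shown to differ for any single member. The interaction of Mrps18b was -0.14, with a 95% interval of -0.52 to 0.25, and that of Mrpl54 was 0.53 (adjusted p 0.374). Myc, outside the family, had an interaction of -2.02 (adjusted p 0.0466).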

How the data were processed

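The authors deposited log2 levels per probe set for 16 arrays; RMA, which corrects the background and summarises probes, and Partek 6.4 are named in the submitters' processing notes, and the sources used here do not give their order or settings. No further scaling was applied, since medians of the arrays ranged from 5.92 to 6.03. Of 35556 rows, 21789 had a single symbol and gave 19938 genes, each by its brightest row; 8 members had more than 1 row. A row shared by Mrpl53 and another gene was left out.

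Groups came from sample titles. All 4 were fitted together in limma 3.58.1 (R 4.3.3; 12 residual degrees of freedom), 2-sided, with Benjamini-Hochberg adjustment over all genes and a call at an adjusted p under 0.05. Errors of differences are standard errors of that fit, and ranges given as an interval are at 95%. The number of arrays limits the precision. The fit was tested on simulated data.

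The members, gene lists and alternatives were chosen with earlier results of these data known. Named members are Vhl first, then per comparison up to 8 called in each direction by size, or 4 by p where fewer than 4 were called, members with a set role, and from each list up to 4 called genes or the 2 with the smallest p. Mrpl42 and Mrpl33 in VHL-KO/AKI against AKI, Mrps21 and Mrpl54 where not called, and the head-to-head neighbours are outside that rule and were chosen after their values were seen. Alternatives covered scaling, dim genes, several rows, variance, array weights, the groups fitted, replicate block, a sex-linked covariate (Xist minus Y-linked mean) and each array left out. Head-to-head neighbours were read from RefSeq windows.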

Additional observations from a re-analysis of the deposited data

Results flagged for a closer look

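Of 66 groups of 5 arrays examined for named members, 1 held an array far from the others. Mrpl24 was at 8.35 in VHL-KO/AKI replicate 4, while the other 4 arrays of its group lay between 8.50 and 8.55; the gap was 0.766 of the group's range, above Dixon's limit of 0.71. Chance alone gives such an array in about 1 of 20 groups.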

How the results depend on the processing

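With a covariate for sex-linked signal no member was called after injury: the counts became 0 higher and 0 lower in AKI against Control, in VHL-KO/AKI against VHL-KO and in VHL-KO/AKI against AKI, with medians of -0.27 and -0.18 in the former pair. Over all 19938 genes none was called in that pair either, and 393 were higher and 209 lower in VHL-KO/AKI against AKI. Signs of single members with this covariate were read for the named members only. Of the called ones, Mrps18b (-0.14), Mrpl47 (-0.13) and Mrps28 (-0.20) turned in sign in AKI against Control. Mrps18b (-0.50) and Mrps28 (-0.15) did so in VHL-KO/AKI against VHL-KO. Of the uncalled ones, Mrps12 (-0.25, -0.32) and Mrps27 (-0.62, -0.80) turned in both comparisons, and Mrps30 (0.25) in the latter. Over all members, those above 0 went from 31 to 19 in AKI against Control and from 35 to 24 in VHL-KO/AKI against VHL-KO. More members than those listed thus turned in sign. The cause was not tested. The median standard error of a member in AKI against Control grew from 0.127 to 0.557. With only the compared groups fitted, 2 rose in AKI against Control, 7 rose and 1 fell in VHL-KO/AKI against VHL-KO and 0 rose in VHL-KO/AKI against AKI. Over all genes these fits called 1938 higher and 2273 lower, 1183 and 2290, and 182 and 41. With the replicate block, 4 rose and 11 fell in AKI against Control, 2 rose and 0 fell in VHL-KO/AKI against VHL-KO and 0 rose in VHL-KO/AKI against AKI. Over all genes it called 2002 higher and 2530 lower, 631 and 1292, and 433 and 277. After removal of group means, same-numbered arrays correlated between -0.381 and 0.204 (3 of 20 pairs over 0.1). Differently numbered arrays were not set beside them, so this does not decide whether the replicate numbers pair the samples. In VHL-KO/AKI against AKI the count higher was 0 with centring, cyclic loess or trend and robust variance and 5 with array weights, which also called 1 lower. Array weights called 1687 of all genes higher and 1181 lower there, against 495 and 279 without them. Without Control replicate 3 and AKI replicate 4, a choice made after seeing the data, 2 members rose and 1 fell in that comparison. Of all genes 1372 rose and 824 fell. In VHL-KO/AKI against VHL-KO the count lower was 0 with centring and 1 with quantile scaling. Leaving out each array in turn gave 2 to 8 higher and 9 to 19 lower in AKI against Control, 0 to 3 and 0 to 1 in VHL-KO/AKI against AKI, and 2 to 5 and 0 to 3 in VHL-KO/AKI against VHL-KO. Over all genes these were 1745 to 3422 and 2304 to 3389, 175 to 1442 and 54 to 942, and 574 to 1342 and 1063 to 2568. No alternative called a member in VHL-KO against Control or in the interaction.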
